A study of Mus musculus with 6 samples.

Results

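The genes described here are 39 genes of the autophagy machinery, chosen by name for the part their products play in building the autophagosome and loading it with cargo. All 39 are among the 37043 gene symbols of the count table and all 39 were expressed highly enough to be tested. They were measured by bulk RNA-seq in bone marrow-derived basophils (BMBAs), basophils grown from mouse bone marrow cells. Bone marrow of wild-type C57BL/6J mice had been cultured for 7 days with 0.3 ng/mL of a cytokine, which the methods of the study name as IL-3, and basophils had been enriched with beads against CD49b. In all libraries the cells therefore came from IL-3-grown cultures, and the groups differ in the last 6 h, when 3 cultures received PBS and 3 received 10 ng/mL IL-3. The sources used here do not say whether PBS-treated cultures kept the low dose of IL-3 during that time. IL-3 is a cytokine that sustains and activates basophils, and the study made these libraries in asking whether it makes immature basophils leave the bone marrow.

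Autophagy wraps portions of cytoplasm in a membrane that closes into a vesicle, the autophagosome, which then fuses with a lysosome so that its content is degraded. The ULK1 kinase complex starts the process, the class III lipid kinase complex marks the site with the lipid PI3P, lipid carriers expand the membrane, and ubiquitin-like conjugation enzymes attach proteins of the ATG8 family to it, which in turn bind receptors that carry cargo. Growth factors and nutrients restrain autophagy through the kinase complex mTORC1, and blood cells that depend on IL-3 are known to turn to autophagy when IL-3 is withdrawn.

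The 6 libraries held 10537540 to 13999287 counts each. Values are CPM, in which each count is divided by the size of its library after adjustment with TMM factors (trimmed means of M values). They are given as mean ± SD over 3 libraries. Nothing says that the cultures came from separate animals, so p-values measure the spread between these cultures. Within a group, log2 CPM of all tested genes correlated at 0.985 to 0.988 between libraries (Pearson's r across genes, which are not independent replicates), and between groups at 0.952 to 0.957. No library stood apart from its group. Of the basophil markers looked at, all 7 were detected, including Mcpt8, Prss34 and Cd200r3.

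IL-3 moved the autophagy genes in both directions. At an adjusted p under 0.05 in edgeR's quasi-likelihood test, which is the threshold behind the words higher, lower and called throughout, 10 of the 39 genes were higher and 14 were lower in IL-3-stimulated BMBAs, while 15 were not called. Over all 16675 genes tested, 38.2% were called, 18.0% higher and 20.2% lower. The autophagy genes had more counts than most, with a median of 37.9 CPM against 12.8 CPM over all genes tested, and abundant genes are called more readily. Among the 12266 genes with at least the mean CPM of Atg14, the autophagy gene with the fewest counts, 46.3% were called. The share of autophagy genes called was 61.5%. Their median log2 fold change was -0.08 against -0.0033 over all genes tested, and the median size of the change, whatever its sign, was 0.33 against 0.29.

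In 28 of the 39 genes the 3 IL-3 libraries did not overlap with the 3 PBS libraries, or 71.8%, against 48.2% of all genes tested and 56.1% of those with at least the mean CPM of Atg14. These were the 24 called genes and, uncalled, Wipi2, Atg16l1, Map1lc3b and Sqstm1. A change of at least 0.5 on the log2 scale was called in 12 autophagy genes, 3 of them higher (Atg3, Bnip3 and Atg9a) and 9 lower (Ulk1, Pik3r4, Atg14, Atg2a, Atg4c, Atg10, Atg16l2, Calcoco1 and Bnip3l), or 30.8% in all, compared with 23.3% of all genes tested and 26.1% of those with at least the mean CPM of Atg14. Only Atg3, Bnip3 and Atg14 passed 2-fold. The genes together took 0.347% to 0.363% of the counts of each library. In bulk libraries such as these, fewer cells of a type and less RNA per cell cannot be told apart.

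How the libraries are scaled bears on the balance of higher and lower genes. Of the called autophagy genes, 41.7% were higher with TMM, against 47.1% of the calls over all genes. With library totals in place of TMM, the median log2 fold change over all genes moved by -0.16, and 8 autophagy genes were higher and 20 lower, which made 28.6% of the calls higher, against 25.2% over all genes. Each of the 12 genes with the larger changes kept its call and its direction under that scaling.

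**Figure D1:**
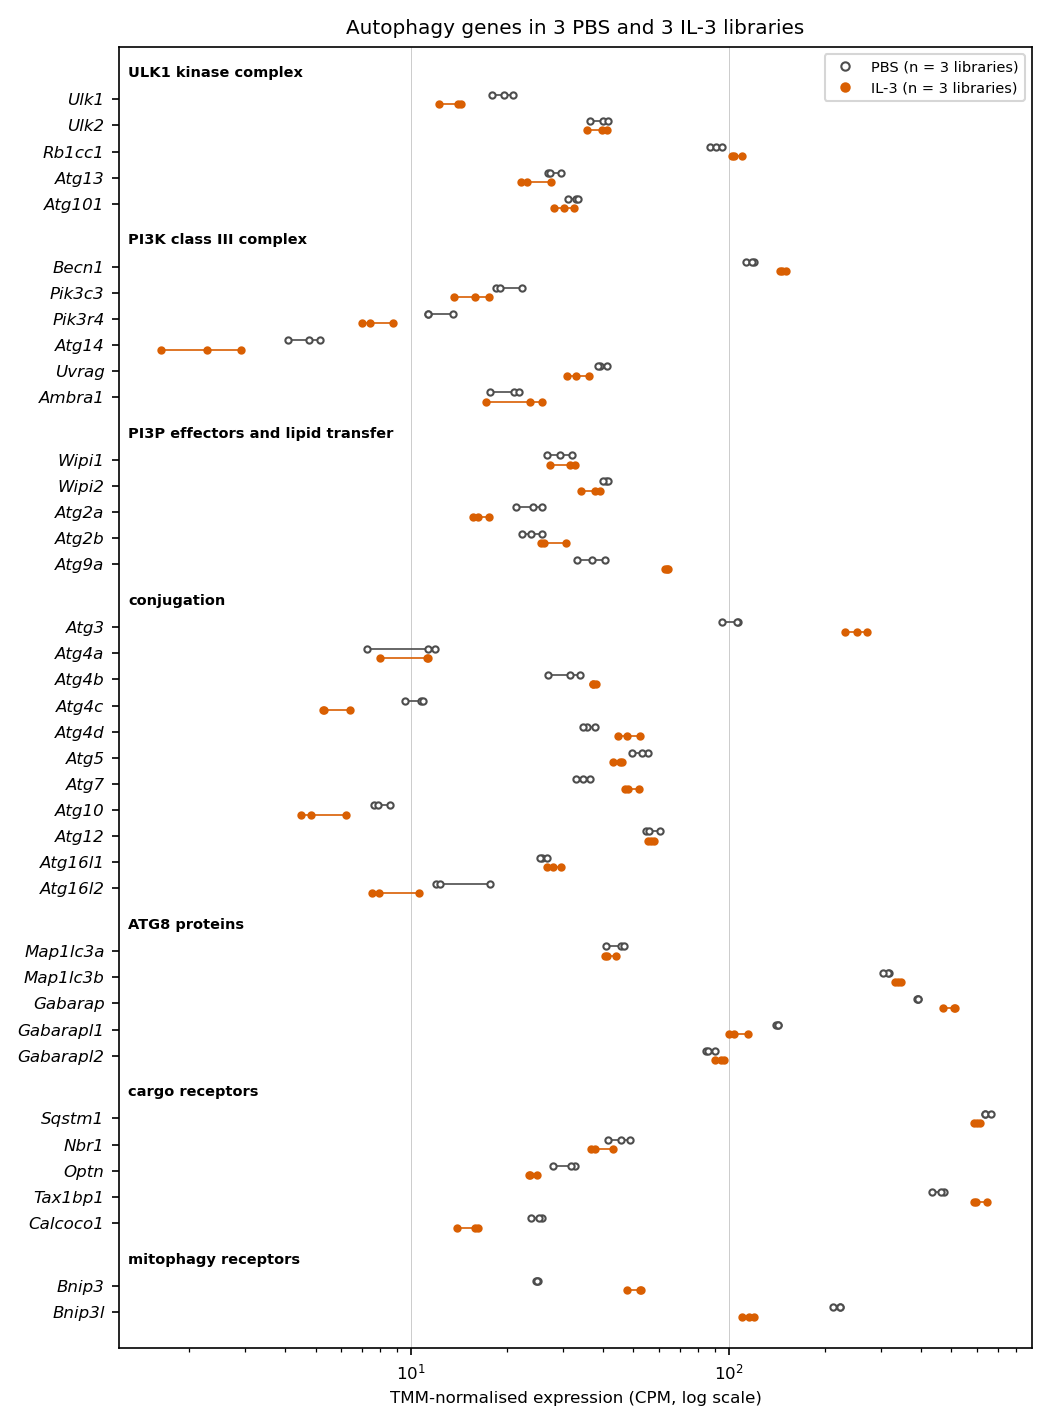
Expression of the 39 autophagy genes in each library, grouped by role, as CPM on a log axis. Open circles are the 3 PBS libraries, filled circles the 3 IL-3 libraries, and lines join the lowest and the highest library of a group. The libraries of a group lie close together for abundant genes, as in Gabarap, and the groups separate most in Atg3, Bnip3, Bnip3l and Atg14.

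The initiating kinase complex had 5 genes on the list, of which 1 was higher and 1 lower. Ulk1 (ENSMUSG00000029512, chromosome 5, 110784488 to 110810097, GRCm38), the kinase that starts autophagy and that mTORC1 holds inactive, was measured at 19.6, 20.9 and 17.9 CPM in PBS, falling to 14.3, 14.1 and 12.3 CPM in IL-3. All IL-3 libraries were below all PBS libraries. The means of Ulk1 were 19.4 ± 1.50 and 13.5 ± 1.13 CPM (SD, n = 3 each), which is -0.52 on the log2 scale (SE 0.121, adjusted p 0.00276). Its paralogue Ulk2, a kinase that can stand in for it, was at 39.4 ± 2.60 CPM in PBS and was not called (log2 fold change -0.01, adjusted p 0.941).

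Rb1cc1 (ENSMUSG00000025907, chromosome 1, 6206197 to 6276648), which encodes the large scaffold FIP200 of the complex, was at 87.1, 90.8 and 95.2 CPM in PBS, against 103, 109 and 102 CPM in IL-3. The groups did not overlap, but the gap was small, with a log2 fold change of 0.21 (SE 0.0609, adjusted p 0.0138). That call was lost without PBS replicate 1 (adjusted p 0.0629), without IL-3 replicate 2 (0.0802) and with library totals (0.655). Atg13 and Atg101, which link the kinase to the scaffold, had log2 fold changes of -0.20 and -0.10 and were not called (adjusted p 0.145 and 0.403). Both were called lower with library totals, at -0.37 and -0.27 (adjusted p 0.00908 and 0.0362).

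The class III lipid kinase complex produces PI3P, the lipid that recruits later factors. Of its 6 genes, 4 were lower and 1 was higher. Atg14 (ENSMUSG00000037526, chromosome 14, 47540893 to 47570649), the subunit that directs the complex to sites of autophagosome formation, had 4.09, 5.17 and 4.76 CPM in PBS, against 2.27, 2.91 and 1.63 CPM in IL-3. Its mean went from 4.67 ± 0.546 to 2.27 ± 0.643 CPM, 2.06-fold lower, with a log2 fold change of -1.04 (SE 0.250, adjusted p 0.00360). Atg14 also had the fewest counts on the list, between 21 and 59 in a library, and its standard error was the widest of the 39. Pik3r4 (ENSMUSG00000032571, chromosome 9, 105642978 to 105687657), the regulatory subunit VPS15 on which the lipid kinase depends, had 11.3, 11.3 and 13.6 CPM in PBS, against 7.40, 8.74 and 6.98 CPM in IL-3. All IL-3 values lay below the PBS values, with means of 12.1 ± 1.31 and 7.71 ± 0.921 CPM and a log2 fold change of -0.64 (SE 0.151, adjusted p 0.00305).

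The catalytic subunit itself, Pik3c3 (VPS34), was lower by a smaller and less certain margin (log2 fold change -0.34, adjusted p 0.0474). Uvrag, which takes the place of ATG14 in complexes that act on endosomes, was likewise lower (log2 fold change -0.25, adjusted p 0.0294). Both calls depended on single libraries. Pik3c3 had an adjusted p of 0.201 without IL-3 replicate 2, 0.181 without PBS replicate 3, 0.0852 without IL-3 replicate 1 and 0.0628 without PBS replicate 2, and Uvrag had 0.141, 0.0918, 0.0744 and 0.0566 without IL-3 replicate 2, PBS replicate 1, IL-3 replicate 3 and PBS replicate 2. Both were also uncalled with all 6 libraries in DESeq2's Wald test (adjusted p 0.0776 for Pik3c3 and 0.0574 for Uvrag) and in edgeR with no filter on low counts (0.0544 and 0.0550).

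Becn1 (ENSMUSG00000035086, chromosome 11, 101285952 to 101302286) encodes Beclin 1, the scaffold of the complex and the subunit that BCL2 binds. It moved the other way, from 120.1, 113 and 118 CPM in PBS to 144, 151 and 147 CPM in IL-3. The means of 117 ± 3.58 and 147 ± 3.52 CPM gave a log2 fold change of 0.33 (SE 0.0561, adjusted p 0.000198), and the groups did not overlap. Exons of Becn1 overlap over 43.9% of their length with exons of Cntd1 on the opposite strand, and the sources used here do not say whether the counting used strand, so reads of these neighbours may not be told apart. Ambra1, a Beclin 1 partner, was not called (log2 fold change 0.15, adjusted p 0.455).

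PI3P is read by WIPI proteins, while ATG2 proteins and ATG9 move lipid into the growing membrane. Of the 5 genes with these roles, 1 was higher and 1 lower. Atg9a (ENSMUSG00000033124, chromosome 1, 75180860 to 75192196), the transmembrane lipid scramblase whose vesicles seed the autophagosome, had 40.7, 37.0 and 33.1 CPM in PBS, against 62.9, 63.6 and 64.0 CPM in IL-3. The IL-3 libraries lay close together and well above the PBS libraries. Atg9a rose 1.72-fold, from 37.0 ± 3.81 to 63.5 ± 0.560 CPM (log2 fold change 0.78, SE 0.0816, adjusted p 1.42e-06). It shared 30.2% of its 50-mers with other genes, most often Gm29253, a gene model on the same strand. With the counts of Atg9a and Gm29253 added together the log2 fold change was 0.74.

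Atg2a (ENSMUSG00000024773, chromosome 19, 6241668 to 6262335), a lipid transfer protein, had 24.2, 25.8 and 21.4 CPM in PBS, against 15.6, 17.6 and 16.2 CPM in IL-3. Its means were 23.8 ± 2.22 and 16.5 ± 1.01 CPM and its log2 fold change -0.53 (SE 0.113, adjusted p 0.00145), with no overlap of the groups. Its paralogue Atg2b had a log2 fold change of 0.19 and was not called (adjusted p 0.170). The PI3P readers Wipi1 and Wipi2 were not called either, at 0.05 and -0.14 (adjusted p 0.727 and 0.199), although with library totals Wipi2 was called lower (-0.30, adjusted p 0.00785).

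The conjugation enzymes were the largest group, with 11 genes, and went both ways in equal number, 4 higher and 4 lower. Atg3 (ENSMUSG00000022663, chromosome 16, 45158785 to 45188538) encodes the E2-like enzyme that passes ATG8 proteins on to phosphatidylethanolamine, and it showed the strongest change of the 39 genes. Atg3 was at 107, 94.9 and 106 CPM in PBS but at 231, 253 and 271 CPM in IL-3. Every IL-3 library was above 2 times every PBS library. Atg3 rose 2.46-fold, from 103 ± 6.62 to 252 ± 20.4 CPM, or by 1.30 on the log2 scale (SE 0.0694, adjusted p 4.37e-10). Atg7, the E1-like enzyme that activates ATG8 proteins for ATG3 and ATG12 for ATG10, had a log2 fold change of 0.498 (adjusted p 0.000132).

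ATG10, by contrast, is the E2-like enzyme of the other conjugation branch, which joins ATG12 to ATG5. Atg10 (ENSMUSG00000021619, chromosome 13, 90935356 to 91223968) had 8.59, 7.63 and 7.84 CPM in PBS, against 6.22, 4.83 and 4.50 CPM in IL-3. With means of 8.02 ± 0.505 and 5.18 ± 0.913 CPM its log2 fold change was -0.64 (SE 0.177, adjusted p 0.00924). The proteins that this branch joins were at -0.23 for Atg5, which was called lower (adjusted p 0.0223), and at -0.01 for Atg12, which was not called (adjusted p 0.940). Atg5 lost its call without PBS replicate 1 (adjusted p 0.0871), IL-3 replicate 3 (0.0861), PBS replicate 2 (0.0556) or IL-3 replicate 2 (0.0530).

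ATG16L1 and ATG16L2 bind the joined ATG12 and ATG5, and ATG16L1 places them on the membrane. Atg16l2 (ENSMUSG00000047767, chromosome 7, 101263034 to 101302251) had 11.9, 17.7 and 12.3 CPM in PBS, against 7.50, 10.6 and 7.91 CPM in IL-3. PBS replicate 2 was high among the PBS libraries and IL-3 replicate 2 was high among the IL-3 libraries, yet the groups did not overlap. The means were 14.0 ± 3.22 and 8.66 ± 1.67 CPM and the log2 fold change was -0.69 (SE 0.179, adjusted p 0.00646). Atg16l1 was not called (log2 fold change 0.12, adjusted p 0.358).

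The ATG4 proteases trim ATG8 proteins before conjugation and release them afterwards, and their 4 genes split. Atg4c (ENSMUSG00000028550, chromosome 4, 99193934 to 99259787) had 10.7, 9.56 and 10.9 CPM in PBS, against 6.42, 5.33 and 5.27 CPM in IL-3. The fall from 10.4 ± 0.736 to 5.67 ± 0.645 CPM was 1.84-fold, with a log2 fold change of -0.88 (SE 0.157, adjusted p 0.000342). Atg4d rose from 36.0 ± 1.58 to 48.3 ± 3.92 CPM (log2 fold change 0.42, adjusted p 0.000847), although 19.3% of its exon length is overlapped by Kri1 on the other strand. Atg4b, the most active protease toward most ATG8 proteins, was higher by a log2 fold change of 0.29 (adjusted p 0.0234), a call lost without PBS replicate 2 (adjusted p 0.117), IL-3 replicate 3 (0.0610), IL-3 replicate 2 (0.0602) or IL-3 replicate 1 (0.0508) and with library totals (0.332). Atg4a, at -0.0055 (adjusted p 0.987), shared 51.2% of its 50-mers with other genes, most often Atg4a-ps, which leaves its own level uncertain.

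**Figure D2:**
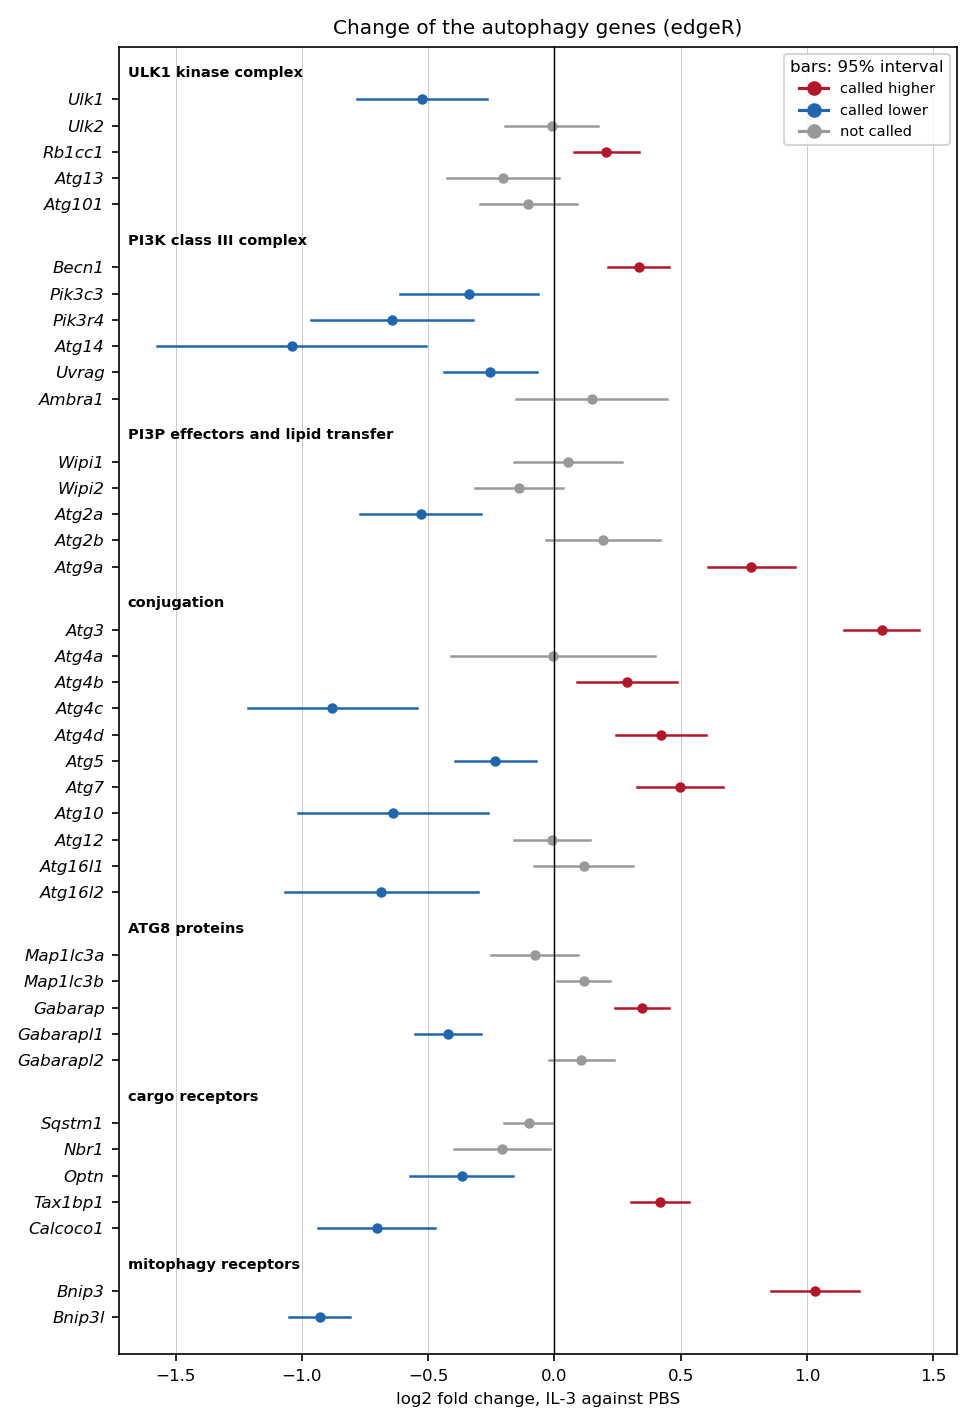
Log2 fold change of each autophagy gene in IL-3-stimulated against PBS-treated BMBAs, by role. Points are edgeR estimates, bars are 95% intervals, red and blue mark genes called higher and lower, and grey marks genes not called. Most roles hold genes on both sides of 0, from Atg3 at 1.30 to Atg14 at -1.04.

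The ATG8 family proteins are the ubiquitin-like tags that end up on the membrane, and of their 5 genes 1 was higher and 1 lower. Gabarap (ENSMUSG00000018567, chromosome 11, 69991143 to 69994951) had 389.6, 392 and 394 CPM in PBS, against 509, 472 and 515 CPM in IL-3. The PBS libraries were nearly the same and all IL-3 libraries were higher. The means of 392 ± 2.14 and 498 ± 23.3 CPM gave a log2 fold change of 0.35 (SE 0.0498, adjusted p 4.08e-05). Gabarapl1, of the same subfamily, was lower, at 142 ± 1.15 CPM in PBS against 106 ± 7.51 CPM in IL-3 (log2 fold change -0.42, adjusted p 5.12e-05). Of its exon length, 28.3% is overlapped by 1700101I11Rik on the opposite strand.

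The other ATG8 genes were not called. Gabarapl2 had a log2 fold change of 0.11 (adjusted p 0.187) and Map1lc3a, which encodes LC3A, of -0.08 (adjusted p 0.490). Map1lc3a was called lower with library totals (-0.24, adjusted p 0.0254). Map1lc3b encodes LC3B, the protein most often followed as a marker of autophagosomes. Its libraries did not overlap, at 313 ± 7.17 CPM in PBS against 340 ± 6.49 CPM in IL-3, yet its log2 fold change of 0.12 had an adjusted p of 0.0751. Map1lc3b shared 5.77% of its 50-mers with other genes, most often Gm6055. Map1lc3b had an adjusted p of 0.0402 with the counts of Gm6055 added to its own. It was also called higher with limma-voom (adjusted p 0.0483), whereas with library totals its log2 fold change was -0.046 (adjusted p 0.515), so that its call and its direction turned on the test, the scaling and the assignment of such reads.

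Levels of different genes were set side by side per length, as CPM per kilobase of the longest coding transcript. Such values assume that this transcript is the one expressed and that reads cover it evenly, and neither was tested. By CPM alone Sqstm1 was above Gabarap, at 647 ± 14.4 against 392 ± 2.14 CPM in PBS and 603 ± 14.1 against 498 ± 23.3 CPM in IL-3. On the scale per kilobase Gabarap was highest of all 39 genes in both groups, at 290.0 ± 1.59 in PBS and 369 ± 17.2 in IL-3. Sqstm1 followed with 242 ± 5.40 and 226 ± 5.27, then Tax1bp1 with 139 ± 6.64 and 186 ± 9.59 and Map1lc3b with 119 ± 2.72 and 129 ± 2.46. Atg3 stood at 49.8 ± 3.22 CPM per kilobase in PBS and at 122 ± 9.91 in IL-3, where it differed from Map1lc3b by less than the spread of Atg3. The lowest level was that of Atg14, at 1.25 ± 0.146 and 0.609 ± 0.172 CPM per kilobase.

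Cargo receptors hold on to ubiquitin-tagged or other cargo and to ATG8 proteins at once. Of their 5 genes, 1 was higher and 2 were lower. Sqstm1 (ENSMUSG00000015837, chromosome 11, 50199366 to 50210827), which encodes p62, the receptor that is itself degraded with its cargo, was at 639, 639 and 664 CPM in PBS, against 589, 617 and 602 CPM in IL-3. The IL-3 libraries were all below the PBS libraries, but by a log2 fold change of only -0.10 (SE 0.0456), which was not called (adjusted p 0.0931). With library totals it was -0.26 and with iterated TMM -0.13, and under both it was called lower (adjusted p 0.000441 and 0.0386).

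Tax1bp1, a receptor for ubiquitin-tagged proteins that also dampens inflammatory signalling, rose from 458 ± 21.8 to 612 ± 31.5 CPM (log2 fold change 0.42, adjusted p 1.25e-05). Calcoco1 (ENSMUSG00000023055, chromosome 15, 102706777 to 102722178), a receptor for endoplasmic reticulum, had 23.9, 25.9 and 25.3 CPM in PBS, against 15.9, 16.2 and 14.0 CPM in IL-3. All IL-3 values lay below the PBS values, and Calcoco1 fell 1.63-fold, with means of 25.0 ± 1.02 and 15.4 ± 1.23 CPM (log2 fold change -0.70, SE 0.109, adjusted p 8.87e-05). Optn, the gene of optineurin, which takes part in clearing mitochondria and bacteria, was lower at -0.37 (adjusted p 0.00649), and Nbr1, a partner of p62, was at -0.21 and not called (adjusted p 0.0785). Nbr1 was called lower with library totals (-0.37, adjusted p 0.00371).

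Receptors on the mitochondrial membrane bind ATG8 proteins directly, and the pair on the list moved in opposite directions. Bnip3 (ENSMUSG00000078566, chromosome 7, 138890836 to 138909519), known as a gene induced by low oxygen, had 25.1, 24.7 and 24.8 CPM in PBS, against 52.6, 52.5 and 47.8 CPM in IL-3. It rose 2.05-fold, from 24.9 ± 0.200 to 51.0 ± 2.78 CPM (log2 fold change 1.03, SE 0.0822, adjusted p 5.60e-08). Bnip3l (ENSMUSG00000022051, chromosome 14, 66985239 to 67008877) encodes NIX, the receptor that clears mitochondria from maturing red cells. In PBS it was at 222, 213 and 223 CPM, and in IL-3 at 109.8, 116 and 120.1 CPM. Bnip3l thus fell 1.90-fold, from 219.5 ± 5.87 to 115 ± 5.16 CPM (log2 fold change -0.93, SE 0.0570, adjusted p 2.30e-09).

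Reads of both receptors can also come from related gene models. Bnip3 shared 16.5% of its 50-mers with other genes, most often Gm16439, whose counts had a log2 fold change of 0.98. Bnip3l shared 20.8%, most often with Bnip3l-ps, at -0.93. When the counts of each gene and its relative were added together, the log2 fold changes were 1.03 for Bnip3 and -0.93 for Bnip3l. On the opposite strand Gm45507 overlaps 22.3% of the exon length of Bnip3. Exons of Uvrag and Sqstm1 are overlapped in the same way over 17.6% by Gm45187 and over 17.3% by Mrnip.

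Ratios of paralogues do not depend on how libraries are scaled, since both genes are counted in the same library. For 10 pairs, the log2 ratio of counts was computed per library with an offset of 0.5 counts. In 8 of the 10 pairs the ratios of the IL-3 libraries did not overlap with those of the PBS libraries. Each of these 8 had p = 0.1 in an exact two-sided permutation test, which is the smallest p that 3 against 3 libraries allow, and 0.125 after Benjamini-Hochberg adjustment over the 10 pairs, so none could pass 0.05.

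The widest shift was that of the mitochondrial receptors. Bnip3 had 0.114 counts per count of Bnip3l in PBS and 0.443 in IL-3, a rise of the log2 ratio by 1.96. The log2 ratio of Atg4c to Atg4d fell by 1.29, from -1.79 ± 0.118 to -3.08 ± 0.0780 (SD, n = 3 each), and that of Atg2a to Atg2b fell by 0.72. Gabarap had 2.76 counts per count of Gabarapl1 in PBS and 4.70 in IL-3, while the log2 ratio of Gabarapl1 to Gabarapl2 fell by 0.53. The log2 ratio of Atg16l1 to Atg16l2 rose by 0.79, that of Ulk1 to Ulk2 fell by 0.51, and that of Map1lc3a to Map1lc3b fell by 0.19. In the remaining pairs the groups overlapped, with differences of 0.20 for Wipi1 to Wipi2 (exact permutation p 0.2, adjusted 0.222) and -0.28 for Atg4a to Atg4b (exact permutation p 0.3, adjusted 0.3). These differences ranged from 0.12 to 0.29 and from -0.41 to -0.12 when 1 library was left out.

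**Figure D3:**
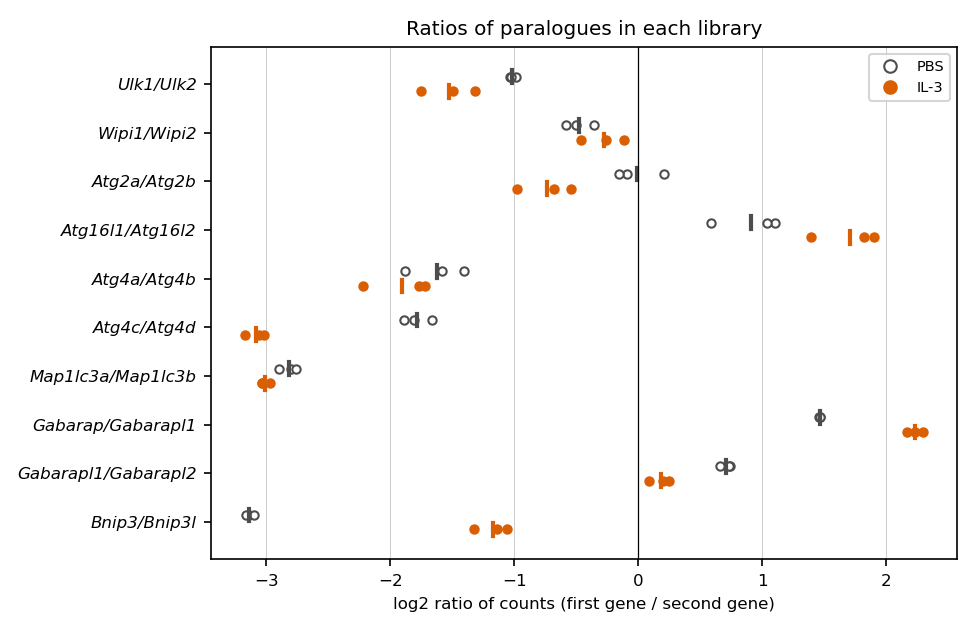
Log2 ratio of the counts of 10 pairs of paralogues in each library (first gene over second gene). Open circles are PBS libraries, filled circles IL-3 libraries and short lines the group means. The ratio of Bnip3 to Bnip3l moves furthest, by 1.96, and the groups overlap in Wipi1/Wipi2 and Atg4a/Atg4b.

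The autophagy machinery is controlled by other genes, for which lists were made by function. Of 82 such genes, 79 were tested, and 16 were higher and 22 lower in IL-3, or 48.1% of those tested, against the 38.2% over all genes. Of the 75 that reached the mean CPM of Atg14, 50.7% were called, against 46.3% of all genes that did. With library totals 9 of the 79 were higher and 42 lower, so the split within the lists that follow holds for TMM. The median log2 fold change of the 79 was -0.07. The 3 untested genes were Prkag3, Atg9b and Calcoco2.

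Among 25 genes of mTORC1 and its inputs, 3 were higher and 8 lower. Sesn2 (sestrin 2), a leucine sensor that restrains mTORC1, rose from 26.7 ± 4.74 to 113 ± 4.14 CPM (log2 fold change 2.08, adjusted p 8.82e-11). Lamtor4, part of the scaffold that holds mTORC1 on lysosomes, rose by 0.32, but was at 0.16 and not called with library totals (adjusted p 0.0619). Ddit4 (REDD1), which restrains mTORC1 under stress, fell from 99.0 ± 10.6 to 46.7 ± 4.19 CPM (log2 fold change -1.08, adjusted p 5.89e-08), and Fnip2, a folliculin partner, had a log2 fold change of -0.97. The kinase gene Mtor was not called (log2 fold change 0.22, adjusted p 0.140). The remaining genes called lower had roles on either side of mTORC1. Rragd, one of the Rag GTPases that recruit mTORC1 to lysosomes, had the widest fall of the 79 genes (-1.54, adjusted p 6.28e-06), and Lamtor2 of the lysosomal scaffold was at -0.28 (adjusted p 0.00570). Of genes whose products restrain mTORC1, Sesn1, Sesn3, Deptor and Akt1s1 were at -0.44, -0.55, -0.59 and -0.32 (adjusted p 0.00670, 0.000482, 0.00677 and 0.0198), while Tsc1, Tsc2 and Tbc1d7 of the TSC complex were not called, at -0.13, 0.01 and -0.36 (adjusted p 0.247, 0.957 and 0.143). The third gene called higher, Rraga, was at 0.18 (adjusted p 0.0472), a call lost without any 1 of the 6 libraries (adjusted p 0.0604 to 0.163), with the replicate block (0.0634), in limma-voom (0.0509) and DESeq2 (0.0888), with no filter (0.0817), with iterated TMM (0.0846) and with library totals (0.907). Akt1s1 lost its call without IL-3 replicate 3 (adjusted p 0.111) or PBS replicate 1 (0.0764).

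Of 7 tested genes of AMPK, the energy sensor that activates ULK1, and its activator, 2 were higher and 1 lower. Prkag1 and Stk11, which encode a regulatory subunit and the activating kinase LKB1, rose by 0.40 and 0.21, and Prkag2, another regulatory subunit, had a log2 fold change of -0.58. Stk11 lost its call without PBS replicate 1 (adjusted p 0.0564), without IL-3 replicate 2 (0.0658) and with library totals, where it was at 0.05 (0.603). Among the 6 transcription factors known to regulate autophagy genes, Mitf rose by 0.52 (adjusted p 0.000724), whereas its relative Tfeb was at -0.42 (adjusted p 0.0146) and Foxo1 at -0.54 (adjusted p 0.0117). Both calls depended on single libraries. Foxo1 had an adjusted p of 0.0541 without IL-3 replicate 3, 0.0523 without PBS replicate 2, 0.0505 without IL-3 replicate 1 and 0.0513 without PBS replicate 3, and Tfeb had 0.0542 without PBS replicate 2 and 0.0784 when IL-3 replicate 2 was left out.

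Of 9 regulators of Beclin 1 and VPS34, 3 were higher and 4 lower. Bcl2, the survival factor that binds Beclin 1, rose from 38.0 ± 2.98 to 185 ± 16.6 CPM (log2 fold change 2.28, SE 0.0796, adjusted p 2.26e-12), and its relative Bcl2l1 rose by 0.97. Dapk1, a kinase that frees Beclin 1 from BCL2, fell from 32.2 ± 2.30 to 14.5 ± 2.84 CPM (log2 fold change -1.14, adjusted p 3.39e-06). Trp53inp1, a p53 target that binds ATG8 proteins, had a log2 fold change of -0.93.

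Downstream of initiation, 5 genes of membrane supply were tested, of which 1 was higher and 1 lower. Vmp1, a lipid scramblase of the endoplasmic reticulum, rose by 0.65 (adjusted p 1.86e-06). Wdr45, which encodes the PI3P reader WIPI4, fell from 42.9 ± 1.28 to 21.2 ± 1.12 CPM (log2 fold change -1.01, adjusted p 1.47e-07). Of 14 genes of fusion with the lysosome, 4 were higher and 3 lower. Tecpr1, a tether of autophagosomes and lysosomes, and the SNARE gene Ykt6 rose by 0.46 and 0.29, and the adaptor gene Plekhm1 and the HOPS subunit gene Vps41 had log2 fold changes of -0.57 and -0.37. With library totals Ykt6 was at 0.13 and not called (adjusted p 0.115).

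Among 13 tested genes of other receptors and of mitophagy, 2 were higher and 3 lower. Tollip, a receptor for ubiquitin-tagged aggregates, and Retreg1, a receptor for endoplasmic reticulum, rose by 0.48 and 0.40. Retreg1 was not called with library totals (0.24, adjusted p 0.123) or without PBS replicate 2 (adjusted p 0.0517). Wdfy3, the aggregate scaffold ALFY, had a log2 fold change of -0.998. Pink1, the kinase that marks damaged mitochondria, fell from 91.8 ± 3.28 to 70.3 ± 1.71 CPM (log2 fold change -0.38, adjusted p 0.000119).

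**Figure D4:**
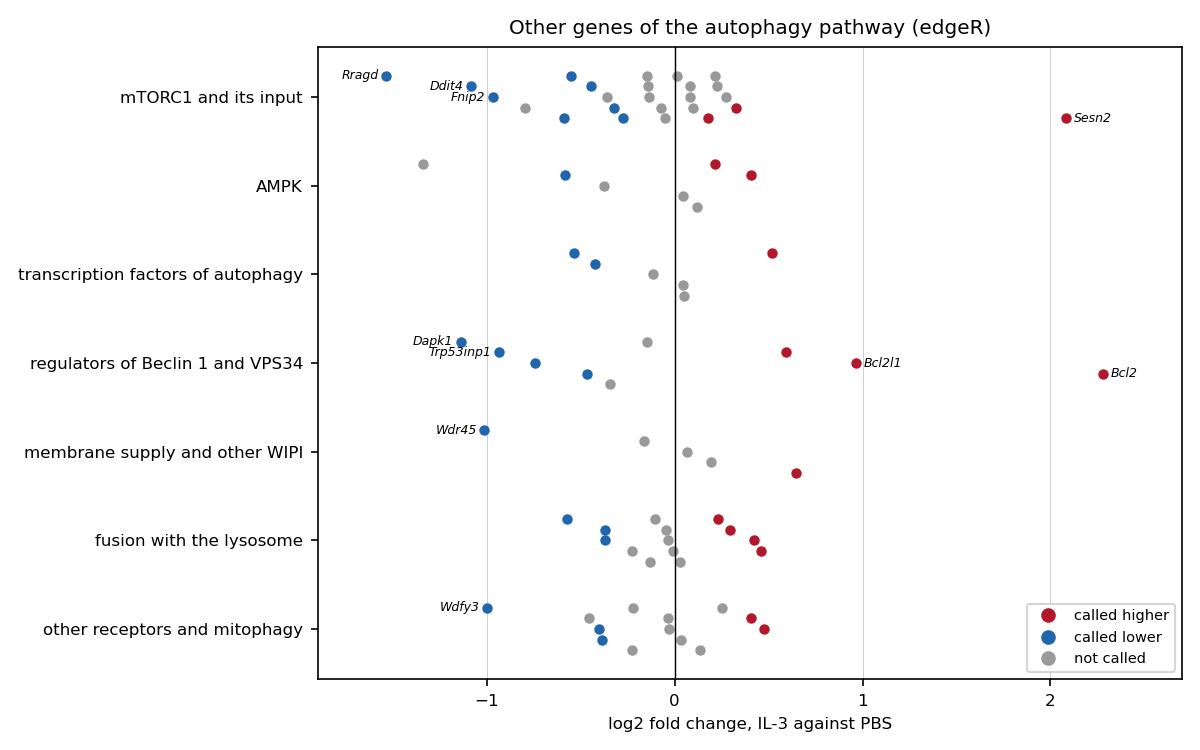
Log2 fold change in IL-3-stimulated against PBS-treated BMBAs of 79 other genes of the autophagy pathway, by list. Each point is 1 gene, red and blue mark genes called higher and lower by edgeR, and names mark called genes with a change of at least 0.9 on the log2 scale. Bcl2 at 2.28 and Sesn2 at 2.08 lie furthest to the right.

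Upstream sequence was read for the autophagy genes to see what those that moved together share. RefSeq start sites (GRCm38.p6) were matched for 32 of the 39 genes, and the 250 bases before each start were searched on both strands. Atg12, Atg16l1, Becn1, Bnip3l, Map1lc3a, Pik3c3 and Rb1cc1 had no match. The letters CACGTG, the E-box core that TFEB, MITF and MYC are known to bind, were found in 4 of the 32 genes (12.5%) and in 6.86% of all 27025 genes with a start site. Of the genes that hold them, Atg3, Atg7 and Bnip3 were higher in IL-3 and Atg5 was lower. That is 3 of 8 matched genes called higher, 1 of 12 called lower and 0 of 12 not called, counts too small for a comparison. The windows around the letters are shown because Atg3 and Bnip3 had the strongest rises, a choice made from the outcome. They lie at chr16:45158715-45158783 (plus strand) for Atg3, chr10:44268305-44268338 (plus strand) for Atg5, chr6:114670944-114670989 (plus strand, inside the annotated Atg7 gene) for Atg7 and chr7:138909589-138909634 (minus strand) for Bnip3. Capitals mark CACGTG, which reads the same on both strands.
Atg3: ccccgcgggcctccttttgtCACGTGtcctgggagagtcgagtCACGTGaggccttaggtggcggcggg
Atg5: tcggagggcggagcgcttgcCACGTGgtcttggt
Atg7: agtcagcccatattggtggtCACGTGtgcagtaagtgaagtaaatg
Bnip3: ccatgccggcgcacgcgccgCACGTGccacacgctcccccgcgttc

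In Atg3 the letters occur at 94 and 71 bases before the start, and in Bnip3, Atg7 and Atg5 at 108, 132 and 14 bases before it. Another motif, TTCNNNGAA, to which STAT5 downstream of the IL-3 receptor is known to bind, was found in 4 of 32 genes (12.5%), namely Gabarap, Gabarapl1, Nbr1 and Wipi1, and in 8.13% of all genes. By call, those 4 were 1 of 8 matched genes called higher, 1 of 12 called lower and 2 of 12 not called, again too few for a comparison. None of the 4 genes holds CACGTG. The FOXO motif GTAAACA was in 0 of 32 genes and in 3.54% of all genes. A match describes the letters of a window and is not a measured binding site.

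BMBA cultures hold other cells, so markers of these and of dividing cells were measured beside the autophagy genes. Of 8 markers of monocytes and macrophages, 6 were lower and 2 higher. The 8 markers summed to 11539 to 12458 CPM in the PBS libraries and 6017 to 6627 CPM in the IL-3 libraries. Most of that sum was Lyz2 in both groups, a gene that fell from 10456 ± 432 to 5348 ± 316 CPM. The sum therefore says little about the other markers on that list. All 10 markers of dividing cells were lower, with sums of 744 to 808 CPM in PBS but only 333 to 416 CPM in IL-3. Basophil markers summed to 10165 to 11342 CPM and 15181 to 15369 CPM, with 5 of 7 higher and 1 lower, and mast cell markers to 330.2 to 369.7 CPM and 668 to 759 CPM, with 3 of 5 tested higher. Neutrophil markers were at 78.9 to 114 and 134 to 200.1 CPM (1 higher and 1 lower of 5 tested), eosinophil markers at 154 to 169.6 and 93.9 to 134 CPM (1 higher and 3 lower of 4), and erythroid markers at 100.04 to 219 and 54.6 to 101.1 CPM (2 lower of 4, Alas2 with 0 counts). The eosinophil sum was mostly Ear2 in PBS, which fell from 134 ± 5.75 to 51.3 ± 8.39 CPM. Prg2, the eosinophil marker called higher, rose from 4.27 ± 1.56 to 49.8 ± 12.0 CPM. NK cell markers summed to 6.46 to 8.24 and 28.8 to 33.1 CPM, of which Nkg7, the only one abundant enough to be tested, made up 6.29 ± 1.11 and 29.3 ± 1.73 CPM and was higher, while Ncr1, Klrb1c, Prf1 and Eomes were under 1 CPM in every library and Gzma had 0 counts. The part of these cells in the changes of the autophagy genes was not tested.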

How the data were processed

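Bulk RNA-seq had been made from 3 PBS-treated and 3 IL-3-stimulated BMBA cultures, grouped by their labels. The authors deposited raw read counts per gene symbol for the 6 libraries. According to their methods, reads were trimmed with Cutadapt v3.4, mapped to reference RNA with Bowtie2 and counted per gene. The methods name the build GRCm38 and the submitters' processing notes name GRCm39. The labels name an RNA purification kit, the methods direct lysis. How reads of several origins were counted is not given, so near-identical genes may share reads.

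The deposited counts were tested in edgeR 4.0.16 under R 4.3.3 (filterByExpr, TMM, two-sided quasi-likelihood test, group as sole term, Benjamini-Hochberg adjustment over 16675 genes, call at an adjusted p under 0.05). TCC, the tool of the study, builds on edgeR. Library totals of 10537540 to 13999287 counts set a floor of 3 counts, or 0.233 to 0.296 CPM, which covers counting error only because no molecular identifiers are described. SEs were computed from the F values. Coordinates, lengths and shared 50-mers came from GENCODE M21 (GRCm38), which held 96.1% of the symbols and all 39 autophagy genes. The scripts were tested on simulated data.

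The 39 genes and all lists were chosen with earlier results of these data known. Every autophagy gene is named. Values in every library are given for genes called with a log2 fold change of at least 0.5 in size and for the gene of highest mean CPM over all libraries in each role, and from each list of other pathway genes the 2 genes called in each direction with the smallest adjusted p are named. Beside these, the remaining called genes of the mTORC1 list, Mtor, Tsc1, Tsc2 and Tbc1d7 were named after their values were seen. The labels number the replicates 1 to 3 in both groups. Deviations from the group means correlated between libraries of the same number at -0.0087, -0.016 and -0.022, which does not make them pairs. Alternatives were other scalings (relative log expression factors computed in edgeR, library totals, iterated TMM) and other filters. Further ones were the Wald test of DESeq2 1.42.0, limma-voom with limma 3.58.1, a replicate block, other thresholds and each library left out. Merging of genes that share sequence was chosen after seeing the data.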

Additional observations from a re-analysis of the deposited data

How the results depend on the processing

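Over the alternatives run for the 39 autophagy genes, 20 kept their direction and their side of the threshold in all of them. None of the 24 called autophagy genes changed direction in them. The 5 called genes that lost their call in at least 1 alternative were Rb1cc1, Pik3c3, Uvrag, Atg4b and Atg5, and 7 uncalled genes passed the threshold in at least 1. Library totals moved the balance most: 8 autophagy genes were then higher and 20 lower (median -0.24 on the log2 scale), and over all genes 1698 were higher and 5030 lower, as a shift of every value by -0.16 brings about. Of the other pathway genes 9 were then higher and 42 lower. Uncalled genes that changed sign with library totals were Ambra1 (-0.019), Wipi1 (-0.11), Atg16l1 (-0.048), Map1lc3b (-0.046) and Gabarapl2 (-0.057). With no filter on low counts Ulk2 was at 0.0014, Atg4a at 0.0052 and Atg12 at 0.0030, and Atg4a was at 0.0058 with limma-voom. The cause of these changes was not tested beyond the shift. With 1 library left out, 8 to 10 autophagy genes were higher and 12 to 13 lower, and over all genes 2482 to 2787 and 2883 to 3108. Uncalled genes that changed sign with 1 library left out were Ulk2 (-0.063 to 0.041), Wipi1 (-0.011 to 0.13), Atg4a (-0.20 to 0.14) and Atg12 (-0.040 to 0.037). Atg13 was called lower without IL-3 replicate 3 (adjusted p 0.0457), and Nbr1 without PBS replicate 2 or IL-3 replicate 2 (0.0417 for both). DESeq2's Wald test and the fit with no filter each left Pik3c3 and Uvrag uncalled. Of 31 other pathway genes named and refitted, 8 lost their call in at least 1 alternative, 5 of them (Lamtor4, Rraga, Ykt6, Stk11 and Retreg1) with library totals.

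With the replicate number as a block, 10 autophagy genes were higher and 14 lower and over all genes 2842 and 3247, and Atg4a was at 0.0064. The block changed no call of an autophagy gene, and of the other pathway genes refitted Rraga lost its call (0.0634). The paralogue ratios kept their sign with an offset of 5 counts and with each library left out. A fall of a gene with as few counts as Atg14, at 21 in 1 library, is known less precisely than that of the abundant genes, and the 3 untested pathway genes were too rare for these depths.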
